A study of Mus musculus with 6 samples.

Results

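The genes described here encode the contractile apparatus and the intermediate filaments of myofibroblasts: Acta2, Tagln, Myl9, Cnn1, Tpm1, Tpm2, Actg2, Myh11, Des and Vim. They were taken by symbol from a table of 21983 genes, and all 10 were found there. A filter on low counts kept 9 of them for the test between genotypes, and Cnn1 did not pass it. The samples are bulk RNA libraries of the livers of 6 C57BL/6 mice, whose sex the labels do not give. Every mouse drank water with thioacetamide (TAA, 400 mg/L), a hepatotoxin that scars the liver, over 16 weeks. In 3 of them (numbers 49, 82 and 88), labelled Lrat-Cre; Prmt1f/f and called knockout here, Cre recombinase is driven from Lrat, a gene that in liver marks hepatic stellate cells, and acts on a floxed allele of Prmt1, an arginine methyltransferase. The other 3 (42, 83 and 90), labelled Prmt1f/f and called control, carry the floxed allele without Cre. Age is labelled as 10 weeks for every mouse, which is less than the 16 weeks of treatment and so cannot be the age at its end. The labels do not say whether it was the age at the start. No untreated mice were among the samples used here, so each value below is a level in TAA-treated liver.

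In the healthy liver stellate cells store retinoids and carry little contractile protein. After chronic injury they turn into myofibroblasts, which lay down collagen and contract around the sinusoids. Smooth muscle actin (Acta2) is the usual marker of that state. Contraction needs actin filaments and a myosin motor whose regulatory light chain is switched on by phosphorylation. Tropomyosin wraps the filaments, and proteins of the calponin family bind them. Vimentin and desmin form the intermediate filaments that hold the cell together. Many of these genes are also made by the smooth muscle of liver vessels, and vimentin by endothelial cells and leukocytes. The transcription factor SRF, with myocardin or the myocardin-related factors, drives much of this programme through an A/T-rich DNA element called the CArG box.

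Total counts ranged from 13303884 to 16462278 per mouse. Prmt1 itself was at 38.9, 44.4 and 49.8 CPM (counts scaled to the TMM-adjusted library size) in control mice 42, 83 and 90. It was at 35.8, 24.7 and 25.8 CPM in knockout mice 49, 82 and 88. All 3 knockout values lay below all 3 control values, and the adjusted p was 0.347 (edgeR). Prmt1 is made by many cell types, so its level in whole liver includes cells without Cre. With edgeR, the main test, 0% of 13153 genes passed an adjusted p of 0.05, while 1448 had an unadjusted p below it. DESeq2 called 238 genes and limma-voom 0. Differences below are therefore given as values, and none is a call of the main test. Libraries of control mouse 42 and knockout mouse 49 differed less from each other (chi-square per degree of freedom 28.4) than either did from any other library. The closest pair of all was knockout mice 82 and 88 (16.3). Control mouse 90 was far from every other library, the other control mice included (91.3 to 105.2). The labels name no batch.

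Across the group, 9 of 9 tested genes had a lower mean in knockout liver, with a median log2 fold change of -0.78 (-0.79 without knockout mouse 49 and -0.98 without control mouse 42). Over all genes tested the median was -0.02 and 52.7% were negative. In 5 of the 9, Acta2, Tagln, Myl9, Tpm1 and Tpm2, every knockout liver lay below every control liver, a pattern held by 7.95% of all genes tested. In 6 of the 9, these 5 and Vim, the unadjusted p was under 0.05 with a lower knockout mean, against 5.95% of all genes. DESeq2 called 3 of the 9 at an adjusted p of 0.05, Acta2, Tagln and Tpm1, against 0.935% of all genes called lower. The same 3 were called by limma-voom with a weight per library (1.96% of all genes called lower). Vim, Des, Myh11, Actg2 and Cnn1 overlapped between genotypes. In bulk liver, fewer cells of a type and less RNA per cell cannot be told apart.

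**Figure D1:**
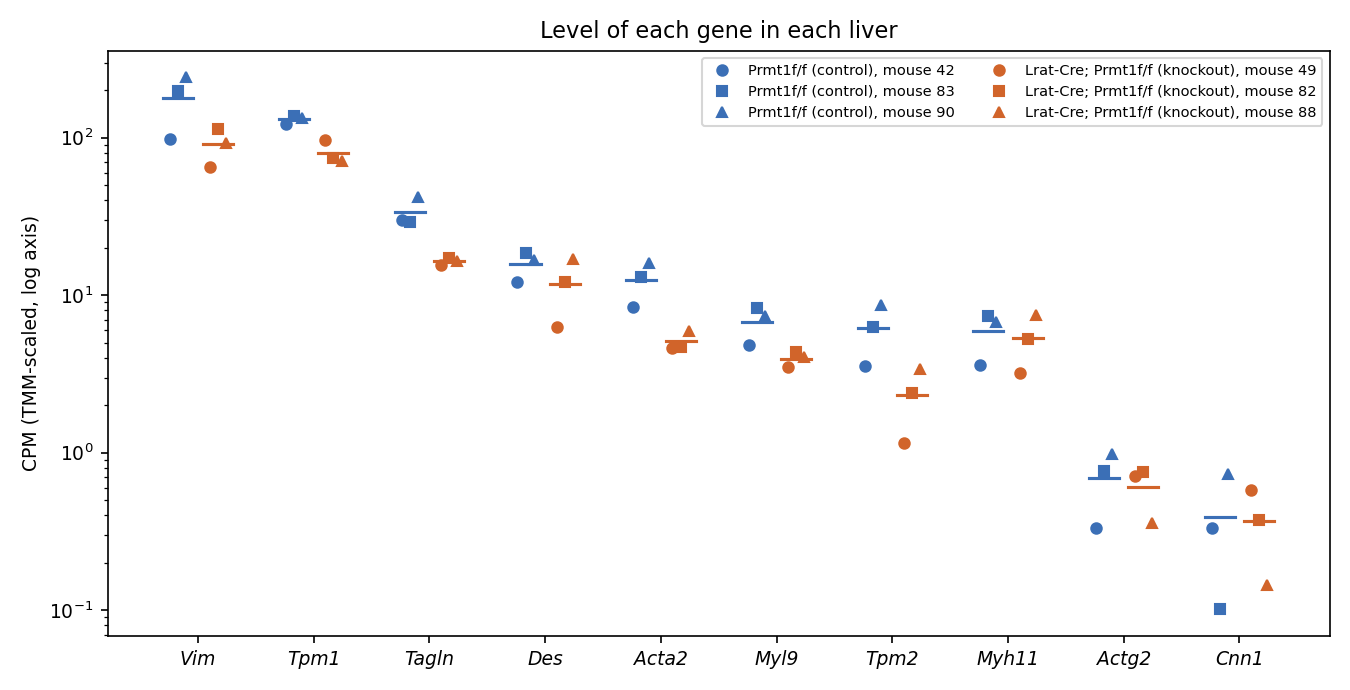
Level of each gene in each liver, in CPM on a log axis. Points are single mice (blue control, orange knockout, one symbol per mouse number within a genotype) and horizontal lines are the means of 3 mice. For Acta2, Tagln, Myl9, Tpm1 and Tpm2 all orange points lie below all blue points, while the points of Vim, Des, Myh11, Actg2 and Cnn1 overlap.

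Among the actins, Acta2 occupies bases 34241090 to 34255590 of chromosome 19 on the minus strand (GENCODE M21 on GRCm38, the assembly also named mm10). Its level was 8.47, 13.1 and 15.9 CPM in control mice 42, 83 and 90. In knockout mice 49, 82 and 88 it was at 4.64, 4.72 and 5.91 CPM. The knockout livers lay close together and the control livers were spread 1.88-fold, with mouse 42 the lowest of them. Control mice averaged 12.5 ± 3.77 CPM and knockout mice 5.09 ± 0.712 CPM (SD, n = 3). This is a log2 fold change of -1.29 (SE 0.29, 95% interval -1.95 to -0.64). Its adjusted p was 0.256 by edgeR and 0.0101 by DESeq2. An exact permutation test of log2(CPM + 0.1), two-sided, gave p = 0.1, and 3 mice against 3 allow no smaller value. Of the 1986 windows of 50 bases in its longest coding transcript, 7 also occur without mismatch in transcripts of other genes. Confusion of its reads with those of other actins through inexact matches was not tested.

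Actg2, the actin of visceral smooth muscle, lies on chromosome 6 from 83512905 to 83536265 (minus strand) and was near the limit of detection. Its counts were 5, 15 and 12 in control mice 42, 83 and 90. In knockout mice 49, 82 and 88 they were 11, 10 and 5. The knockout counts lay within the range of the control counts, and the 95% interval of the log2 fold change ran from -1.50 to 1.14 (edgeR), so a difference as large as that of Acta2 would lie inside it.

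Tagln encodes transgelin, a calponin-like protein that binds actin filaments and appears early in smooth muscle and myofibroblasts. It lies on chromosome 9 from 45929619 to 45936058 (minus strand). Control mice 42, 83 and 90 had 30.1, 29.3 and 42.2 CPM. Knockout mice 49, 82 and 88 had 15.6, 17.3 and 16.6 CPM, a spread of 1.11-fold. Here mouse 42 was not the lowest control, and knockout livers were at 48.7% of the control mean. On the log2 scale the difference was -1.04 (SE 0.20, 95% interval -1.48 to -0.59). The adjusted p was 0.227 in edgeR and 0.00247 in DESeq2, and 28 of the 13153 genes had a smaller unadjusted p in edgeR. On the opposite strand GENCODE places exons of the antisense gene Gm48529 over 62.4% of the exon bases of Tagln, and of Pcsk7 over 5.43%. No source used here states whether counting used strand, so where these genes overlap Tagln their reads cannot be told apart from its own. Pcsk7 had a log2 fold change of 0.48 (SE 0.22), opposite in sign to Tagln, and Gm48529 is not a row of the table.

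Cnn1, smooth muscle calponin, lies on chromosome 9 from 22099216 to 22109630 (plus strand) and had between 2 and 9 counts in each mouse. Summed over 3 mice, its counts were 16 in control and 16 in knockout liver. Scaled by library size, the ratio of knockout to control was 1.10, with a 95% interval from 0.514 to 2.34 that covers counting error only. At this depth a difference of the size seen in Tagln was just outside that interval, and the spread between mice comes on top of it. By mean CPM knockout liver was at 93.8% of control (0.366 ± 0.218 against 0.390 ± 0.321 CPM), so the direction depended on the measure.

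The regulatory light chain Myl9 is the subunit whose phosphorylation switches on myosin in smooth muscle and myofibroblasts. It lies on chromosome 2 from 156775420 to 156781658 (plus strand). Control mice 42, 83 and 90 had 4.8, 8.23 and 7.36 CPM. Knockout mice 49, 82 and 88 had 3.48, 4.35 and 4.04 CPM. The groups did not overlap, but the gap between control mouse 42 and knockout mouse 82 was narrow. Its log2 fold change was -0.78 (SE 0.30, 95% interval -1.46 to -0.11; adjusted p = 0.398, edgeR).

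Myh11, the smooth muscle myosin heavy chain and a marker of mature vascular smooth muscle, lies on chromosome 16 from 14194535 to 14291372 (minus strand). Control mice 42, 83 and 90 had 3.60, 7.42 and 6.79 CPM. Knockout mice 49, 82 and 88 had 3.22, 5.25 and 7.49 CPM. The highest liver of all was a knockout and the spread within each genotype exceeded 2-fold. Its log2 fold change was -0.16 (SE 0.39, 95% interval -1.06 to 0.74; adjusted p = 0.893, edgeR). Its sign turned without knockout mouse 49 (0.10) and without control mouse 83 (0.037).

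Tropomyosins wrap the actin filament and set which proteins may bind it. Tpm1 lies on chromosome 9 from 67022590 to 67049406 (minus strand) and gives rise to muscle and non-muscle isoforms, which gene counts do not separate. It was at 121.9, 138 and 133 CPM in control mice 42, 83 and 90. In knockout mice 49, 82 and 88 it was at 96.1, 74.4 and 70.8 CPM. Of the 9 tested genes it had the tightest control livers (1.14-fold), and here knockout mouse 49 was the highest of its group, not the lowest. Knockout differed from control by -0.70 on the log2 scale (SE 0.19, 95% interval -1.13 to -0.28). Its adjusted p was 0.305 by edgeR and 0.0326 by DESeq2.

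Tpm2, which encodes the beta-tropomyosin of muscle, lies on chromosome 4 from 43514711 to 43523765 (minus strand). Control mice 42, 83 and 90 had 3.53, 6.30 and 8.67 CPM. Knockout mice 49, 82 and 88 had 1.16, 2.40 and 3.39 CPM. Its knockout mean was 37.5% of the control mean, the lowest share among the 10 genes, but both genotypes were widely spread and mice 42 and 88 nearly touched. Its log2 fold change was -1.41 (SE 0.47, 95% interval -2.48 to -0.35; adjusted p = 0.35, edgeR).

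The intermediate filament genes gave a mixed picture. Vim encodes vimentin and lies on chromosome 2 from 13573927 to 13582826 (plus strand). Control mice 42, 83 and 90 had 97.9, 198 and 242 CPM. Knockout mice 49, 82 and 88 had 65.6, 114 and 92.7 CPM. Control mouse 42 lay below knockout mouse 82, so the groups overlapped although the means differed 1.97-fold in the fit. Its log2 fold change was -0.98 (SE 0.34, 95% interval -1.76 to -0.20; adjusted p = 0.368, edgeR). Leukocytes make vimentin as well, and 10 of 12 leukocyte markers were lower in knockout liver (median log2 fold change -0.98). Their median ran from -1.31 without control mouse 42 to -0.69 without knockout mouse 49. An unadjusted p under 0.05 in edgeR with a lower mean was found in 5 of the 12 (5.95% of all genes). DESeq2 called 2 lower (0.935% of all genes), and 2 were without overlap below control (7.95%). The summed level of the 12 was 306, 801 and 847 CPM in control mice 42, 83 and 90. In knockout mice 49, 82 and 88 it was 300.2, 454 and 485 CPM, with none of the 12 at 0 in all mice. The part of these cells in the value of Vim was not tested.

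Desmin (Des), made by rodent stellate cells and by muscle, lies on chromosome 1 from 75360329 to 75368579 (plus strand). Control mice 42, 83 and 90 had 12.1, 18.5 and 16.8 CPM. Knockout mice 49, 82 and 88 had 6.31, 12.1 and 16.9 CPM. Mouse 49 stood apart at the low end, while mouse 88 was at the level of the controls. Its log2 fold change was -0.43 (SE 0.35, 95% interval -1.22 to 0.36; adjusted p = 0.659, edgeR). Without knockout mouse 49 it was -0.12, and without knockout mouse 88 it was -0.81. Exons of the antisense gene Gm15179 cover 5.86% of its exon bases.

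**Figure D2:**
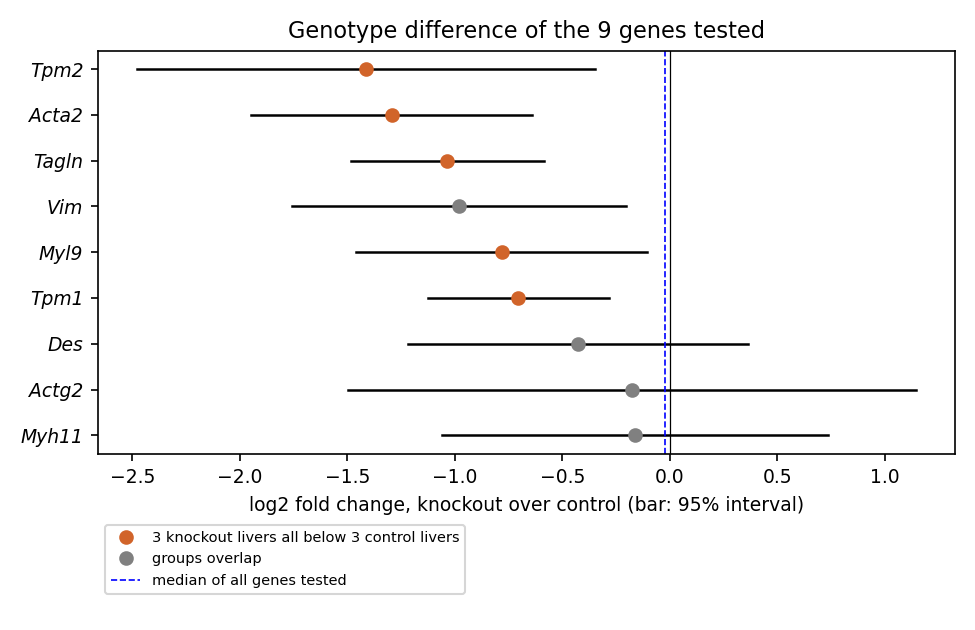
Log2 fold change of knockout over control for the 9 tested genes, with 95% intervals from edgeR. Orange points mark genes whose 3 knockout livers all lie below the 3 control livers, and the dashed line is the median of all genes tested (-0.02). Intervals of Tpm2, Acta2, Tagln, Vim, Myl9 and Tpm1 lie below 0 before adjustment, and those of Des, Actg2 and Myh11 include it.

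Levels of different genes can be compared only per length, here as CPM per kilobase of all exons of a gene in GENCODE M21. On that scale the order in control liver was Vim (37.8 ± 15.6), Tpm1 (20.2 ± 1.30), Tagln (17.05 ± 3.63), Myl9 (5.85 ± 1.54), Acta2 (5.69 ± 1.72), Des (4.21 ± 0.895), Tpm2 (2.12 ± 0.884), Myh11 (0.781 ± 0.269), Actg2 (0.445 ± 0.212) and Cnn1 (0.143 ± 0.117; SD, n = 3). Control ranges of neighbours in this order overlapped except between Tagln and Myl9, between Des and Tpm2 and between Tpm2 and Myh11. In knockout liver the order was the same, except that Des (3.14 ± 1.42) stood above Acta2 (2.32 ± 0.324) with overlapping ranges. Acta2, the marker of the myofibroblast, was thus below Tagln per length in all 6 livers. Summing every annotated exon lowers the value of genes with many isoforms, of which Tpm1 has the second longest exon length (6485 bases, after 7599 for Myh11).

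The mice differed among themselves as well as by genotype. Over the 9 tested genes, the mean log2 distance from the control mean was -0.50 in control mouse 42, 0.17 in mouse 83 and 0.33 in mouse 90. In knockout mice 49, 82 and 88 it was -1.04, -0.64 and -0.60. Mouse 49 had the lowest level of the 6 in 7 of the 9 genes, and control mouse 90 the highest in 5. Control mouse 42 therefore lay nearer to knockout mice 82 and 88 than to its own group on this mean. Tagln and Tpm1 were the genes in which control mouse 42 stood closest to the other control mice.

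**Figure D3:**
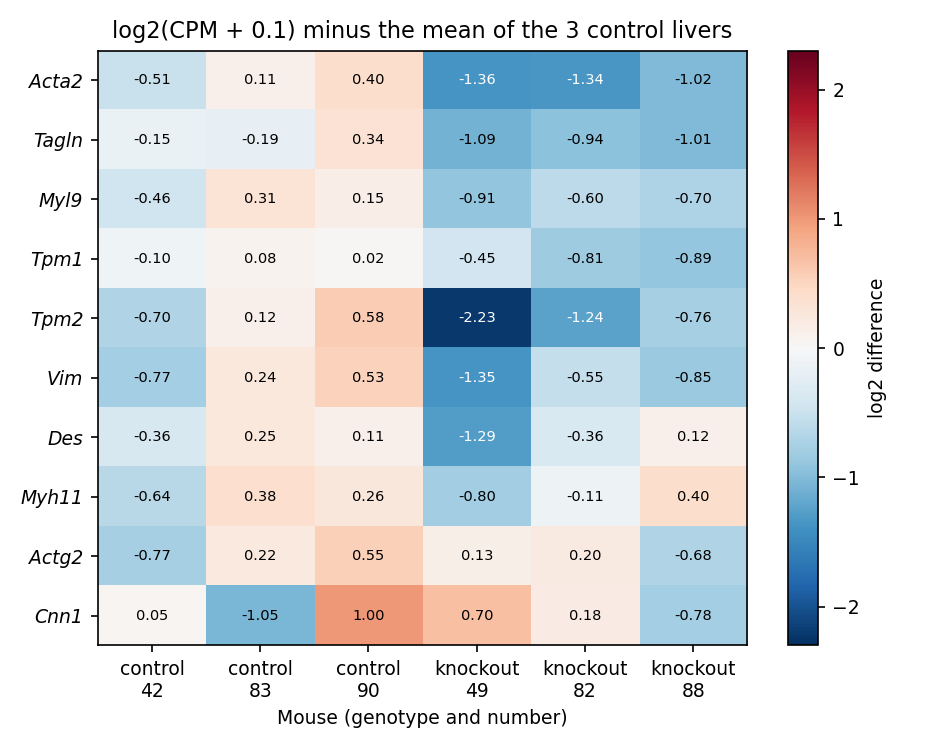
Each cell is log2(CPM + 0.1) of a gene in a mouse minus the mean of the 3 control livers, blue for lower and red for higher. The upper 6 rows (Acta2 to Vim) are blue in all 3 knockout columns. The lower 4 (Des to Cnn1) have both signs among the knockout mice, with Des from -1.29 in mouse 49 to 0.12 in mouse 88.

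Markers of other cells in the liver were read beside these genes, leaving Des out of the skeletal muscle list so that no list held any of the 10. Of 14 markers of stellate cells and fibroblasts, 13 were lower in knockout liver, and none was at 0 in all mice. The median log2 fold change was -0.56, with -0.34 without knockout mouse 49 and -0.94 without knockout mouse 88. DESeq2 called 3 of the 14 lower (0.935% of all genes), Lrat (-1.07), the matrix glycoprotein gene Reln (-1.01) and the collagen gene Col3a1 (-1.58). Cre is driven from Lrat in knockout mice only, and any effect of this on the level of Lrat was not tested. These 3 and Col1a1 were the 4 without overlap, a pattern held by 7.95% of all genes. The others overlapped, among them Pdgfrb (0.03, SE 0.36) and Pdgfra (-0.19, SE 0.47). The summed level of the 14 was 1442 to 1682 CPM in control and 503 to 1054 CPM in knockout liver, without overlap. Mouse 49 was lowest (503 CPM, against 1025 and 1054 CPM in mice 82 and 88). That separation rests on the collagens Col3a1 (296 to 491 CPM in control, 91.7 to 198 CPM in knockout) and Col1a1 (165 to 276 and 65.4 to 149 CPM). Of 12 markers of vascular smooth muscle and pericytes, 8 were tested and 7 were lower. Their median was -0.43, but -0.063 without knockout mouse 49 and -0.67 without knockout mouse 88. Their sum was 131 to 169 CPM in control and 70.8 to 120.5 CPM in knockout liver, also without overlap. That separation rests on Rgs5, a pericyte marker, which held 59.8 to 85.5 CPM in control and 32.5 to 49.2 CPM in knockout liver. Rgs5 was the only tested gene of this list without overlap (log2 fold change -0.88, SE 0.22). DESeq2 called it (adjusted p = 0.0327), 1 of the 8 tested, against 0.935% of all genes called lower. Mcam was at -0.62 (SE 0.27), Lmod1 at -0.11 (SE 0.50) and Notch3 at 0.65 (SE 0.37), all with overlapping groups. Myocd and Kcnmb1 were at 0 in control mice 42 and 90, Myocd also in knockout mouse 82. The part of either cell type in the values of the contractile genes was not tested.

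Skeletal muscle, which could add contractile RNA if carried along, left little trace. Of its 14 markers, 5 were at 0 in all mice and no gene exceeded 2.21 CPM in any mouse, with a summed level of 2.93 to 5.15 CPM in control and 3.15 to 4.38 CPM in knockout liver. Portal fibroblast and mesothelial markers (13 of 14 tested, 9 lower, median -0.49) summed to 370 to 515 CPM in control and 195 to 385 CPM in knockout liver. Their median ran from -0.87 (without knockout mouse 88) to -0.19 (without knockout mouse 49), with -0.74 without control mouse 42 and -0.27 without control mouse 83. DESeq2 called 2 of these 13 lower (0.935% of all genes), Dpt (-2.42) and Eln (-1.93). Both were without overlap, a pattern held by 7.95% of all genes. Clec3b (2.33) was higher in every knockout liver, as were 1176 of the 13153 genes, with counts of 2, 11 and 1 in control mice 42, 83 and 90. Bile duct markers (7 of 8 lower, median -0.76) summed to 553 to 1348 CPM and 307 to 778 CPM, and their median was -0.40 without control mouse 83, -0.44 without knockout mouse 49 and -1.19 without knockout mouse 88. Endothelial markers spanned about the same range in both genotypes (5 of 10 lower, 427 to 554 CPM against 424 to 558 CPM). Of the hepatocyte markers 7 of 10 had a higher mean in knockout liver, with a median of 0.63 (0.38 without knockout mouse 88). DESeq2 called Cps1 (1.04) and Tdo2 (1.03) higher, against 0.874% of all genes. The summed level, most of it Alb, was 68302 to 105899 CPM in control and 82835 to 98571 CPM in knockout liver. The part of these cells in the values of the 10 genes was not tested.

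Dividing the counts of Acta2 by those of another gene in the same liver gives a measure that does not depend on the scaling between libraries. These ratios were chosen after the values of the genes were seen. Per count of Myh11 there were 2.35, 1.76 and 2.35 counts of Acta2 in control mice 42, 83 and 90, and 1.44, 0.900 and 0.788 in knockout mice 49, 82 and 88. The groups did not overlap, and the mean log2 ratio differed by -1.08, with a two-sided exact permutation p of 0.1. Adjusted over the 5 ratios computed (to Myh11, Des, Pdgfrb, Dcn and Col1a1) by Benjamini-Hochberg, that exact p was 0.5. Each of the 3 knockout mice had less Acta2 per Myh11 than each control mouse, and with 3 mice against 3 no ratio could reach 0.05.

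Relative to genes of the fibroblast lineage, knockout mouse 49 parted from the other two. Dcn encodes decorin, a matrix proteoglycan made by stellate cells and fibroblasts. Per count of Dcn there were 0.0343, 0.0401 and 0.0368 counts of Acta2 in control mice 42, 83 and 90. Mouse 49 had 0.0415, slightly above all controls, while mice 82 and 88 had 0.0187 and 0.0186. Mouse 49 was low in Dcn itself (112 CPM against 247 to 433 CPM in control), and mice 82 and 88 were not (253 and 318 CPM). Per count of Pdgfrb, a PDGF receptor of stellate cells and pericytes, mouse 49 (0.223) lay among the controls (0.188 to 0.411) and mice 82 and 88 below them (0.0989 and 0.0861). Per count of Des the ratio in mouse 49 (0.735) was also within the control range (0.702 to 0.947), and mice 82 and 88 were at 0.389 and 0.349. Per count of Col1a1, a fibrillar collagen, the knockout ratios (0.0709, 0.0317 and 0.0495) all lay within the control range of 0.0307 to 0.0966. Exact permutation p-values of these 4 ratios were 0.4 (Dcn), 0.2 (Pdgfrb), 0.3 (Des) and 1 (Col1a1), before adjustment.

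**Figure D4:**
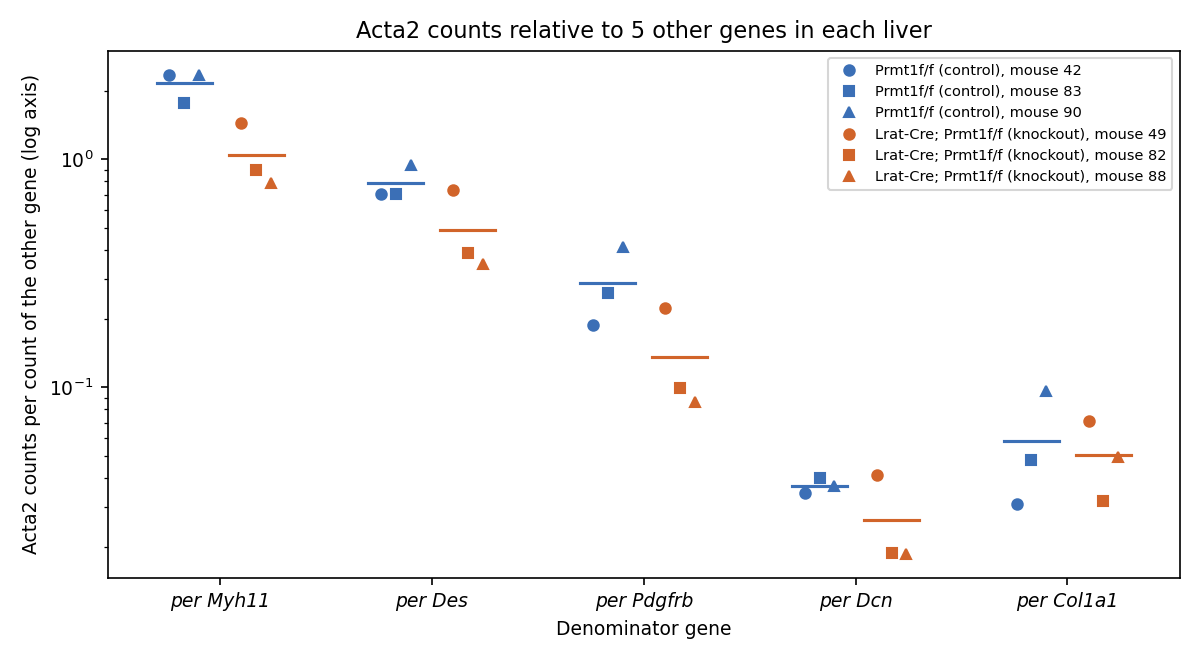
Counts of Acta2 per count of Myh11, Des, Pdgfrb, Dcn or Col1a1 in each liver, on a log axis, with lines at the means of 3 mice. Knockout mouse 49 (orange circle) lies within or above the control points for Des, Pdgfrb, Dcn and Col1a1, whereas mice 82 and 88 lie below the control points for Des, Pdgfrb and Dcn.

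The wider machinery of contraction was read from lists of related genes. Of 15 paralogs and relatives of the 10 genes outside smooth muscle, 14 were tested and 13 had a lower mean in knockout liver (median -0.49). No paralog passed edgeR's adjusted p, 6 of 14 had an unadjusted p under 0.05 and a lower mean (5.95% of all genes), and none had one with a higher mean (5.06%). Cnn2, a non-muscle calponin, averaged 25.8 ± 7.30 CPM in control mice and 12.99 ± 2.01 CPM in knockout mice (log2 fold change -0.99, SE 0.26), and DESeq2 called it (adjusted p = 0.0484). Myl12a, a non-muscle regulatory light chain, was at 60.0 ± 14.3 and 35.6 ± 5.25 CPM (-0.75, SE 0.21). The cytoplasmic actins Actb (-0.73) and Actg1 (-0.67) also had lower means with overlapping groups, while the non-muscle heavy chains Myh9 (-0.09) and Myh10 (-0.05) and the calponin Cnn3 (0.02) were near 0.

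Further structural partners of smooth muscle filaments were spread around 0. Of 22 genes 20 were tested, 12 were lower (median -0.05), and 0 passed adjustment in edgeR. An unadjusted p under 0.05 with a lower mean was found in 2 of the 20, against 5.95% of all genes, and with a higher mean in 0, against 5.06%, a share near that of all genes. Those 2 were Pdlim3 (3.05 ± 1.35 against 0.946 ± 0.207 CPM; -1.69, SE 0.46) and Pdlim7 (27.5 ± 4.86 against 15.1 ± 5.24 CPM; -0.87, SE 0.27), which join kinases and other proteins to the actin cytoskeleton. Both had groups without overlap, as had 7.95% of all genes. Cald1 (0.03), Mylk (0.27), Csrp1 (0.07) and Palld (0.01), which encode caldesmon, the myosin light chain kinase, a LIM protein and palladin, had means within 1 SE of 0.

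Regulators of transcription came next. Of 16 tested genes of the SRF, YAP and TEAD group and their early targets, 10 were lower (median -0.03). An unadjusted p under 0.05 was found in 2 of them, both lower, which is again near the share of all genes. Srf (-0.013), Mkl1 (-0.0051) and Mkl2 (0.21), the factor and its myocardin-related partners, and Yap1 (0.16) had means within 1 SE of 0. The 2 were Ankrd1 (7.04 ± 2.28 against 3.56 ± 1.03 CPM; -0.99, SE 0.35) and Cyr61 (20.7 ± 7.19 against 11.7 ± 4.84 CPM; -0.81, SE 0.36), both known targets of YAP and TEAD. Cyr61 overlapped between genotypes, and Ctgf, another such target, was at -0.22 (SE 0.41). Of 19 tested genes of actin crosslinking and focal adhesion, 10 were lower (median -0.0036) and 0 had an unadjusted p under 0.05. Lims2 (0.48, SE 0.22) and Parvb (-0.53, SE 0.27), partners of integrin-linked kinase, had the smallest p. No gene of the lists of related genes passed an adjusted p of 0.05 in edgeR. As single mice were left out, the median took both signs in these last 3 lists, from -0.24 to 0.069 for the smooth muscle partners, -0.17 to 0.059 for the regulators and -0.18 to 0.052 for crosslinking and adhesion.

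**Figure D5:**
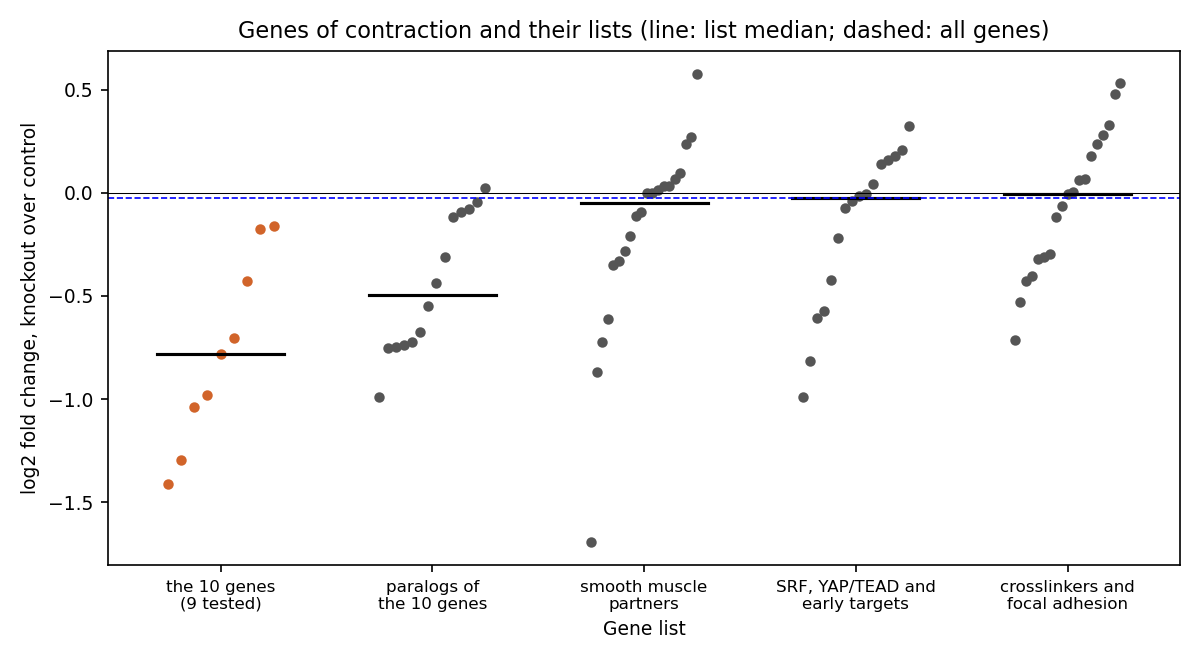
Log2 fold change of knockout over control for the 9 tested genes (orange) and for each tested gene of 4 related lists (grey), sorted within a list, with the list median as a black line and the median of all genes dashed. The medians are -0.78 for the 9 genes, -0.49 for their paralogs and relatives, and between -0.05 and 0 for the other 3 lists.

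The promoters of the genes were searched for CArG boxes, since several of the genes had lower means together. RefSeq promoter sequences of GRCm38.p6 were matched for 7 of the 10 genes (Acta2, Myl9, Cnn1, Tpm1, Tpm2, Des and Vim) and not for Tagln, Actg2 and Myh11. In the 250 bases before the start, Myl9 held 1 full CArG box (CC and GG around 6 bases of A or T), which 1.62% of 27025 genes hold. Acta2 held 2 and Myl9 1 CArG-like box, in which exactly 1 of those 6 bases is C or G, found in 8.33% of genes. The pattern reads the same on both strands. The 4 boxes are shown with 10 bases on each side, 5′ to 3′ on the strand of the gene, with the box in capitals, because they are the matches found among the 7 genes:
Acta2 box 84 to 75 bases before the start, chr19:34255438-34255467, minus strand: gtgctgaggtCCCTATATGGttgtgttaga
Acta2 box 34 to 25 bases before the start, chr19:34255388-34255417, minus strand: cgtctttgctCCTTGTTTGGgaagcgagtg
Myl9 box 161 to 152 bases before the start, chr2:156775293-156775322, plus strand: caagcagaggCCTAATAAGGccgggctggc
Myl9 box 99 to 90 bases before the start, chr2:156775355-156775384, plus strand: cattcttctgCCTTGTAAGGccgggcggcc
Both boxes of Acta2 lie inside a first exon that GENCODE M21 starts further upstream than the RefSeq start used here. The boxes of Myl9 lie outside annotated exons. To show their setting, the stretch of the Myl9 promoter outside exons, chr2:156775214-156775419 on the plus strand, is printed with both boxes in capitals:
Myl9 promoter: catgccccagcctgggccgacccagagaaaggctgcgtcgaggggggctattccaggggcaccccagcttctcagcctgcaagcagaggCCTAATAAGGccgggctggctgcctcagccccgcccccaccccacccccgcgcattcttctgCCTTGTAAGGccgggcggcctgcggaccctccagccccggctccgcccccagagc
The TEAD motif CATTCC, searched on both strands, occurred in Acta2 and Tpm1, against 14.4% of genes. Both of these sites lie inside exons of their genes in GENCODE M21. The windows of Cnn1, Tpm2, Des and Vim held neither motif, which says only that these letters are not in the 250 bases searched. The window of Vim lies wholly inside the gene as GENCODE M21 places it, and only 39 bases of the Tpm2 window lie outside its gene.

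Some genes followed the contractile genes closely from mouse to mouse. Likeness was the mean absolute difference of centred log2 CPM over the 6 mice, among 12477 genes of at least 1 CPM. The nearest to Acta2 were Hmgn2 (0.0987), Ptgr1 (0.118) and Rap2b (0.130), and to Tagln Prim2 (0.0950), Cd300lb (0.106) and Mcm3 (0.107). Vim was closest to Ccdc88b (0.0766), Selplg (0.0771) and Marcks (0.0823), and Tpm1 to Trp53 (0.0750). Among the 9 tested genes themselves the closest pair was Myh11 and Des (0.17), followed by Tagln with Tpm1 (0.20) and Acta2 with Vim (0.21), and the farthest was Tpm2 with Actg2 (0.83). These values are a description of 6 mice, with no test.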

How the data were processed

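Whole-liver RNA of 6 mice, 3 per genotype, was sequenced from NEBNext Ultra libraries. The authors deposited raw counts per gene symbol for each mouse; per the submitters' processing notes the genome was mm10 and the tools were HTSeq, STAR, FastQC and Trimmomatic, with no version listed. No source used here states the annotation or the strand setting. The table held 0 rows without a gene, 0 repeated symbols and 0 columns of other samples. Mice were grouped by title, and columns matched by mouse number. No number occurs in both genotypes.

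Counts were tested with edgeR 4.0.16 in R 4.3.3 (glmQLFit and glmQLFTest) after filterByExpr (13153 genes) and TMM scaling (factors 0.909 to 1.20), with a single term for genotype, and p-values were adjusted over all genes by Benjamini-Hochberg, with a threshold of 0.05. Intervals are at the 95% level. It was tested on simulated data. CPM are counts over TMM-scaled library sizes; per-mouse log2 levels add 0.1. Exact tests used the 20 assignments of mice. Alternatives used DESeq2 1.42.0 and limma 3.58.1. Named genes were the 10 genes, the 2 with the smallest p of each related list and the 3 nearest by likeness; other genes were named after their values were seen. The results of 1 further gene list are not reported here. The 10 genes and all lists were chosen with earlier results of these data known.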

Additional observations from a re-analysis of the deposited data

How the results depend on the processing

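Each of the 9 tested genes was refitted under 18 alternatives (17 for Actg2), 4 of them chosen after seeing the data (the newer edgeR fit, library weights, a term for mouse number under or over 80, and the mice over 80 alone). Acta2, Tagln, Myl9, Tpm1, Tpm2, Vim and Des kept a negative log2 fold change in all 18. Actg2 ran from -0.50 to 0.066 as each mouse was left out (0.066 without control mouse 90, 0.055 without knockout mouse 88), and Myh11 from -0.52 to 0.10 (0.10 without knockout mouse 49, 0.037 without control mouse 83). The median of the 9 genes ran from -0.98 (without control mouse 42) to -0.67 (without control mouse 83). The number of the 10 genes past the threshold was 3 with DESeq2 and 3 with limma-voom with a weight per library, and 0 otherwise. Over all genes the count was 238 with DESeq2, 560 with library weights, 4 without the low-count filter, 3 at an adjusted p of 0.10, 6 with the term for mouse number, and 0 to 13 as each mouse was left out, the 13 without knockout mouse 49. The cause of these differences was not tested. The term for mouse number gave Acta2 an adjusted p of 0.151, and leaving out single mice gave 0.101 to 0.839. Scaling by total counts alone moved the median of all genes by -0.15. Actg2 and Cnn1 are limited by depth. No paired analysis was run because the labels name no pairing of mice between genotypes.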
